A study of Mus musculus with 2 samples.

Results

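CD4 T cells and regulatory T cells were examined among leukocytes of mouse melanomas on day 4 after tumor cell injection. A cell was counted as a member when it held at least 1 unique molecular identifier (UMI, a tag that marks 1 captured transcript) of Cd4 or Foxp3 and at least 1 UMI in 2 or more of the T cell receptor genes Cd3d, Cd3e, Cd3g, Trac and Trbc2. Cells with any UMI of Cd8a, Cd8b1, Csf1r or Ncr1 were left out. By this rule 139 of 9798 cells were members, 75 of 5292 in the control library and 64 of 4506 in the NK cell-depleted library. They were divided into 46 Foxp3-positive cells, 29 control and 17 NK cell-depleted, and 93 Foxp3-zero cells, 46 control and 47 NK cell-depleted.

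Both libraries came from C57BL/6 hosts aged 8 weeks that carried Ptgs-/- melanomas, that is, BrafV600E melanoma cells that cannot make prostaglandin E2 because both COX enzymes were deleted. Control hosts were untreated by the labels, with no control antibody named for this library, whereas NK cell-depleted hosts received 200 µg of anti-NK1.1 (clone PK136) with 30 µg of anti-asialo GM1 on days 0 and 2. Live CD45+ cells of the pooled tumors of a group were sorted, parental melanoma cells were spiked in, and 16000 cells were loaded per library. The genotype label of both samples read wildtype tumor cells, against the knockout named in the titles, and this conflict touches both groups alike. Anti-NK1.1 also binds NK1.1+ T cells, and anti-asialo GM1 can bind some activated T cells, so the depletion need not be confined to NK cells. With 1 library per group no test between groups was possible, and every interval below is a 95% interval that covers counting error only.

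CD4 T cells recognize antigen on MHC class II and help other leukocytes. Those that carry the transcription factor Foxp3 are regulatory T cells, which restrain immune responses through CTLA-4, consumption of IL-2 and inhibitory cytokines. Naive CD4 T cells circulate through lymph nodes with the receptor CCR7 under the control of Tcf7, Lef1 and Satb1, while activated cells enter tissues and lose these genes. Interferons of type I and type II (IFN-gamma) bind separate receptors that both signal through STAT proteins and turn on overlapping sets of genes.

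The members were 1.42% of control cells (exact binomial interval 1.12 to 1.77) and 1.42% of NK cell-depleted cells (1.10 to 1.81), a ratio of 0.998 with an interval from 0.705 to 1.42. Foxp3-positive cells made up 38.7% of control members (27.6 to 50.6) and 26.6% of NK cell-depleted members (16.3 to 39.1). The ratio of these shares was 1.46 with an interval from 0.774 to 2.82, so a difference was not detectable at this number of cells. CD8 T cells, chosen by Cd8a or Cd8b1, numbered 38 and 23, and cells with an NK cell profile numbered 271 and 0. The rule rests on few molecules. Of the 112 Cd4-positive members, 80 held 1 UMI of Cd4, and 25 Foxp3-positive members held 1 UMI of Foxp3. No Cd4 UMI was found in 27 of the 46 Foxp3-positive members, 20 of 29 control and 7 of 17 NK cell-depleted. These cells were admitted on Foxp3 alone, whereas every Foxp3-zero member held Cd4 by the rule. Just inside the rule were 24 members with UMIs in 2 of the 5 receptor genes, and just outside it were 15 cells with UMIs in 1 of them and 13 cells with none. A Foxp3-zero cell is therefore a cell in which no Foxp3 UMI was captured, not a cell shown to lack Foxp3.

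The members held 197720 UMIs in the control library and 190202 in the NK cell-depleted library. Median depth was 2292 and 2591 UMIs in Foxp3-positive cells and 2174 and 2354 UMIs in Foxp3-zero cells, below the 5599 and 5894 UMIs of monocytes and macrophages. The deepest NK cell-depleted Foxp3-positive cell, with 13914 UMIs, gave 21.2% of the UMIs of its group. Mitochondrial UMIs had a median of 5.29% in control and 6.12% in NK cell-depleted members. Marker lists of other cell types were summed in the order control Foxp3-positive, control Foxp3-zero, NK cell-depleted Foxp3-positive and NK cell-depleted Foxp3-zero. The whole monocyte and macrophage list gave 256, 73, 46 and 68 UMIs, B cell markers 49, 61, 68 and 20, fibroblast and endothelium markers 12, 18, 5 and 24, and gamma-delta T cell markers 0, 14, 0 and 30. Dendritic cell, melanoma and red blood cell markers gave 0 to 8 UMIs in each group. Much of this came from genes not confined to those cells, namely Ccr2 (94, 46, 35 and 44 UMIs), Pecam1 (10, 18, 5 and 24) and Il17a (0, 13, 0 and 30). The counts that follow leave out Ccr2, Pecam1, Il17a, Ighm and Ciita, a choice made after seeing the data. Ighm held most of the B cell marker UMIs, which without it were 2, 28, 6 and 0 in the same order. The source of the Ighm UMIs was not tested. Monocyte and macrophage markers then gave 162 UMIs in 10 of 29 control Foxp3-positive cells, of which 115 lay in 1 cell, and 11 to 27 UMIs in each of the other 3 groups. NK cell markers gave 48 UMIs there, 46 of them in 1 cell, and 1 to 10 in the other groups. In control Foxp3-zero cells B cell markers gave 28 UMIs, 27 of them in 1 cell, and in NK cell-depleted Foxp3-zero cells neutrophil markers gave 51 UMIs, 49 of them in 1 cell. In all, 4 members held 20 or more UMIs of another cell type's markers so counted, namely 2 control Foxp3-positive cells and 1 Foxp3-zero cell in each library. The libraries shared 7 cell barcodes, none of them among the members.

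The remaining markers of the cell types were present. Ctla4, the inhibitory receptor, and Icos, a costimulatory receptor, were both detected in most Foxp3-positive cells. Ctla4 was found in 25 of 29 control and 15 of 17 NK cell-depleted Foxp3-positive cells, and in 16 of 46 and 14 of 47 Foxp3-zero cells. Icos was found in 24 of 29 and 16 of 17 Foxp3-positive cells and in 38 of 46 and 29 of 47 Foxp3-zero cells. In monocytes and macrophages Ctla4 reached 0.238% and 0.145% of cells and Icos 0.204% and 0.291% of cells, far below every group of members.

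Foxp3-positive cells carried the program of regulatory T cells. The regulatory list of 25 genes other than Foxp3 was 3.93-fold higher in the control library (3.42 to 4.53), comparing its summed UMIs as a share of all UMIs of each cell group, and 6.06-fold higher in the NK cell-depleted library (5.15 to 7.16). Of its genes with at least 20 UMIs, 9 of 12 were over 2-fold higher in the control library, beside 10.1% of all 1785 genes at that level. In the NK cell-depleted library 9 of 11 were, beside 11.7% of 1748 genes. The median log2 ratios of these genes were 1.95 and 1.89, against 0.03 and 0.09 over all genes. Foxp3 set the groups, and a list of genes known to go with Foxp3 is a description of them, not a test.

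Ikzf2, which encodes Helios, a transcription factor of regulatory T cells, had 214 UMIs in the control Foxp3-positive cells and 221 in the NK cell-depleted ones, against 46 and 13 in Foxp3-zero cells. It was 5.73-fold higher in the control library (4.15 to 8.06) and 32.2-fold higher in the NK cell-depleted library (18.4 to 61.4). It was detected in 86.2% and 94.1% of Foxp3-positive cells, in 15.2% and 8.51% of Foxp3-zero cells and in 4.11% and 2.47% of monocytes and macrophages. Ctla4 was 3.04-fold (2.26 to 4.13) and 5.28-fold (3.68 to 7.70) higher. Il2ra, the high-affinity chain of the IL-2 receptor, had 31 and 16 UMIs against 7 and 5, and was 5.45-fold (2.36 to 14.7) and 6.06-fold (2.12 to 21.2) higher.

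Receptors of the TNF family followed the same order. Tnfrsf9 (4-1BB) had 59 and 26 UMIs in Foxp3-positive cells and 8 and 3 in Foxp3-zero cells, a ratio of 9.08 (4.32 to 22.0) in the control library and 16.4 (5.03 to 84.8) in the NK cell-depleted library. Tnfrsf4 (OX40) was 5.98-fold (3.33 to 11.5) and 2.39-fold (1.26 to 4.62) higher, and Tnfrsf18 (GITR) 2.23-fold (1.35 to 3.74) and 2.08-fold (1.09 to 4.02) higher. The wider activation and checkpoint list of 23 genes, which shares these receptors and Ctla4 with the regulatory list, was 1.79-fold higher in the control library (1.60 to 2.01) and 1.70-fold higher in the NK cell-depleted library (1.502 to 1.93).

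A set of genes known from regulatory T cells of peripheral tissues was seen in part of the Foxp3-positive cells. Il1rl1, the receptor of IL-33, was detected in 16 of 29 and 9 of 17 Foxp3-positive cells against 7 of 46 and 5 of 47 Foxp3-zero cells, with ratios of 3.23 (1.78 to 6.16) and 3.79 (1.88 to 8.03). Areg, which encodes the tissue repair factor amphiregulin, had 59 UMIs in 11 control and 43 UMIs in 4 NK cell-depleted Foxp3-positive cells, with 60.5% of the latter in 1 cell, against 15 and 2 UMIs in Foxp3-zero cells. Both genes were detected together in 6 control and 3 NK cell-depleted Foxp3-positive cells. Klrg1, a receptor of differentiated effector and regulatory cells, had 32 UMIs in 11 of 29 and 17 UMIs in 6 of 17 Foxp3-positive cells, and 1 and 0 UMIs in Foxp3-zero cells. Itgae, the integrin chain CD103, was listed with 8 and 15 UMIs in Foxp3-positive cells and 0 in Foxp3-zero cells. Against a floor of 3 UMIs per group this was 3.28-fold and 9.47-fold higher, values that carry no interval. Il10 had 6 and 9 UMIs in 3 and 2 Foxp3-positive cells and 0 in Foxp3-zero cells.

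**Figure D1:**
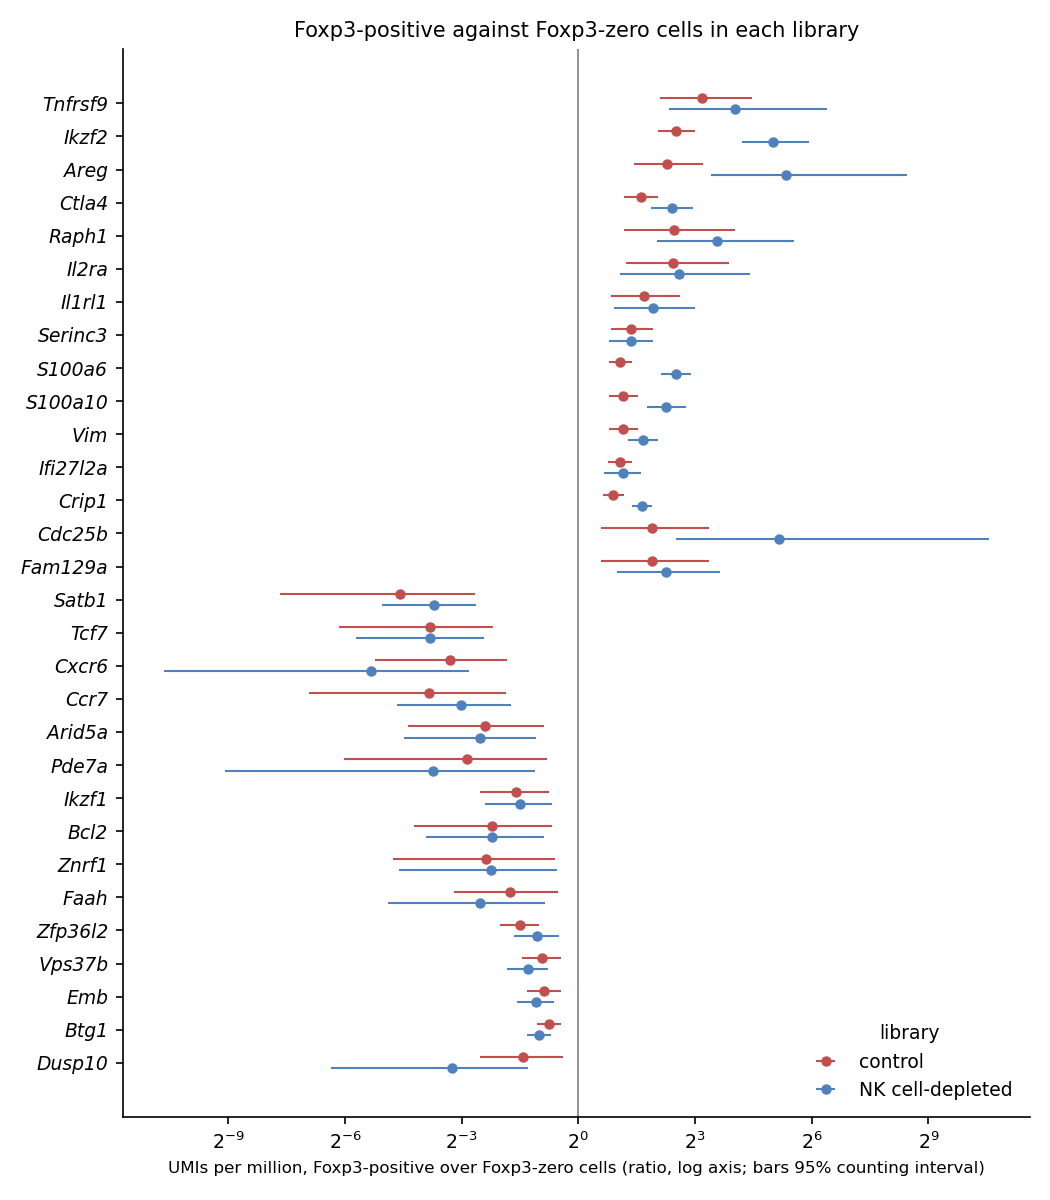
Ratio of a gene's share of all UMIs in Foxp3-positive over Foxp3-zero cells, on a log axis, for the 15 genes highest and the 15 genes lowest by the rule given under the processing. Points are the control and NK cell-depleted libraries and bars are 95% counting intervals. Each of the 30 genes lay on the same side of 1 in both libraries by that rule, from Tnfrsf9 (9.08 and 16.4) at the top to Satb1 (0.0417 and 0.0767), Tcf7 and Cxcr6 below.

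The 15 genes most clearly higher in Foxp3-positive cells of both libraries also included genes outside the lists. S100a6, a calcium-binding protein gene, had 266 and 232 UMIs in Foxp3-positive cells and 155 and 77 in Foxp3-zero cells, S100a10 had 172 and 123 against 95 and 49, and Vim, the filament protein vimentin, had 167 and 158 against 92 and 95. Crip1 had 285 and 334 against 188 and 203 UMIs. Raph1, Cdc25b, Fam129a and Serinc3 completed the set together with Ifi27l2a, an interferon-induced gene taken up again below. Raph1 was also detected in 47.8% and 50.02% of monocytes and macrophages, and the share of that signal which came from free RNA was not tested.

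Foxp3-zero cells carried the naive and recirculation genes. This list of 12 genes was lower in Foxp3-positive cells, at 0.528 of the Foxp3-zero level in the control library (0.437 to 0.635) and 0.460 in the NK cell-depleted library (0.393 to 0.537). Of its genes with 20 UMIs or more, 4 of 8 in the control library were more than 2-fold lower, where 4.82% of all genes were. Another 1 was more than 2-fold higher, where 10.1% of all genes were. In the NK cell-depleted library 7 of 11 were more than 2-fold lower, where 7.89% were, and none more than 2-fold higher, where 11.7% were. Satb1, a chromatin organizer of naive T cells, had 2 and 7 UMIs in Foxp3-positive cells and 59 and 173 in Foxp3-zero cells, ratios of 0.0417 (0.00494 to 0.158) and 0.0767 (0.0304 to 0.161). Tcf7 had 3 and 4 UMIs against 52 and 107, and Ccr7 had 2 and 5 against 35 and 76. Igfbp4, a naive T cell marker in the mouse, was listed at 0 in all 46 Foxp3-positive cells and had 15 and 62 UMIs in Foxp3-zero cells, although 19.8% and 14.98% of monocytes and macrophages held a UMI of it. Klf2, which keeps T cells in circulation, also went the other way in the control library, with 73 UMIs in Foxp3-positive and 62 in Foxp3-zero cells (ratio 1.45, 1.02 to 2.07). It was not the gene counted as more than 2-fold higher. With only cells of at least 1000 UMIs and at most 5% mitochondrial UMIs, of which 5 NK cell-depleted Foxp3-positive cells were left, the list stood at 1.15 in that library.

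Cxcr6, a chemokine receptor of T cells lodged in tissues, was also a gene of Foxp3-zero cells. It had 48 UMIs in 22 of 46 control and 76 UMIs in 13 of 47 NK cell-depleted Foxp3-zero cells, but 4 and 1 UMIs in Foxp3-positive cells, ratios of 0.103 (0.0269 to 0.280) and 0.0249 (0.000623 to 0.143). In monocytes and macrophages it was detected in 0.0679% and 0.145% of cells. Cxcr6 and Ccr7 were mostly held by separate Foxp3-zero cells. Ccr7 and Cxcr6 were detected together in 2 of 46 control and 0 of 47 NK cell-depleted cells, while 20 and 13 cells held Cxcr6 without Ccr7 and 11 and 22 held Ccr7 without Cxcr6. Cxcr6 met Satb1 in 6 and 5 cells and Tcf7 in 13 and 4 cells, so the separation did not extend to Tcf7 in the control library. Satb1 and Ccr7 met in 9 and 20 cells. Shared depth bears on every such count, because a deep cell shows more genes.

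Cytokine transcripts came from few cells. Il17a, the cytokine of the Th17 lineage, was confined to 1 control cell with 13 UMIs and 2 NK cell-depleted cells with 30 UMIs among the Foxp3-zero cells, and all 3 held Cxcr6. Ifng had 9 UMIs in 5 control and 13 UMIs in 2 NK cell-depleted Foxp3-zero cells, of which 4 and 2 held Cxcr6. Il2 was detected in 7 and 6 Foxp3-zero cells and Cd40lg, the signal of CD4 help to antigen-presenting cells, in 8 and 8. Both were at 0 in Foxp3-positive cells, where a count of 0 does not show that the transcript was absent. Other genes more than 2-fold lower in Foxp3-positive cells of both libraries were Arid5a, Pde7a, Bcl2, Ikzf1, Znrf1, Faah, Zfp36l2 and Dusp10 or close to that size (Vps37b, Emb and Btg1). Bcl2, a survival factor, had 4 and 5 UMIs against 23 and 44.

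**Figure D2:**
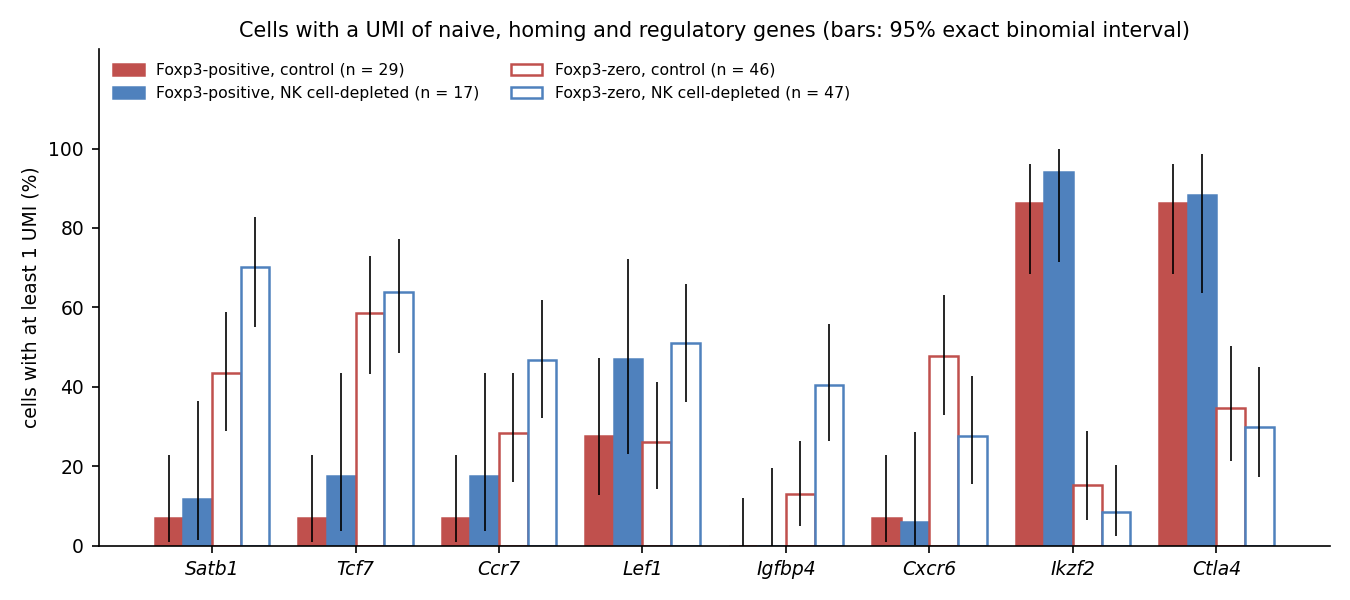
Percent of cells with at least 1 UMI of 8 genes in Foxp3-positive (filled) and Foxp3-zero (open) cells of the control (red) and NK cell-depleted (blue) libraries. Lines are 95% exact binomial intervals. Ikzf2 was found in 86.2% and 94.1% of Foxp3-positive cells, and Satb1 in 43.5% of control and 70.2% of NK cell-depleted Foxp3-zero cells.

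Between the libraries, the naive and recirculation list had the lowest ratio over all members among the 14 lists of T cell and response genes. It stood at 0.509 in control against NK cell-depleted members (0.458 to 0.565). Of its 11 genes with at least 20 UMIs, 7 were more than 2-fold lower in control members, where 4.09% of all 3395 genes were, and none was more than 2-fold higher, where 4.59% of all genes were. The median log2 ratio of the list was -1.06, against -0.0033 for all genes. Satb1 had 61 UMIs in control and 180 in NK cell-depleted members (0.326, 0.240 to 0.438), Igfbp4 had 15 and 62 (0.233, 0.123 to 0.414), Ccr7 37 and 81 (0.439, 0.289 to 0.656) and Tcf7 55 and 111 (0.477, 0.339 to 0.664). These were among the 10 genes most clearly lower in control members, as were Gpr183, a receptor that guides T cells by oxysterols, with 17 and 55 UMIs, Ugcg, Clcn3, Arpc4 and Il1b. Of the 55 Il1b UMIs of NK cell-depleted Foxp3-zero cells, 94.5% lay in 1 cell.

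Most UMIs of the naive list lay in Foxp3-zero cells, 385 of 550 in the control and 836 of 1039 in the NK cell-depleted library, and both cell groups had less of it in control. The list stood at 0.525 in Foxp3-zero cells (0.465 to 0.594), where 5 of 11 genes were more than 2-fold lower beside 4.29% of all 2052 genes. It stood at 0.603 in Foxp3-positive cells (0.488 to 0.744), where none of 4 genes was more than 2-fold lower beside 6.15% of all 1448 genes. As a share of the UMIs of a cell, the list had a median of 0.228% in control and 0.739% in NK cell-depleted Foxp3-zero cells, with both ranges starting at 0 and ending at 1.58% and 1.90%, so the cells overlapped. The 5 genes that follow, chosen from the 12 of the list, were each held by more NK cell-depleted than control Foxp3-zero cells. Detection of the other genes of the list is not given. Satb1 was detected in 20 of 46 (43.5%, 28.9 to 58.9) and 33 of 47 (70.2%, 55.1 to 82.7). Igfbp4 was detected in 6 and 19, Lef1 in 12 and 24 and Ccr7 in 13 and 22. Tcf7, in 27 and 30, was close to equal. With every cell thinned to 1000 UMIs the shares for Satb1 were 28.9% and 58.7%. Cxcr6 was detected in 47.8% of control and 27.7% of NK cell-depleted Foxp3-zero cells, or 24.4% and 13.0% after thinning, although its summed UMIs were not lower in the latter, so no order is read from these shares. With the stricter limit on UMIs and mitochondrial UMIs, which left 17 and 16 Foxp3-zero cells, the list stood at 0.832 with an interval (0.650 to 1.06) that included 1, and Ccr7 and Tcf7 stood above 1.

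In CD8 T cells of the same libraries the naive list was lower in the control library as well. It stood at 0.471 in control against NK cell-depleted cells (0.415 to 0.535), with Satb1 detected in 47.4% of 38 and 100% of 23 cells. Fewer naive cells and less of these transcripts per cell cannot be told apart from the summed values.

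**Figure D3:**
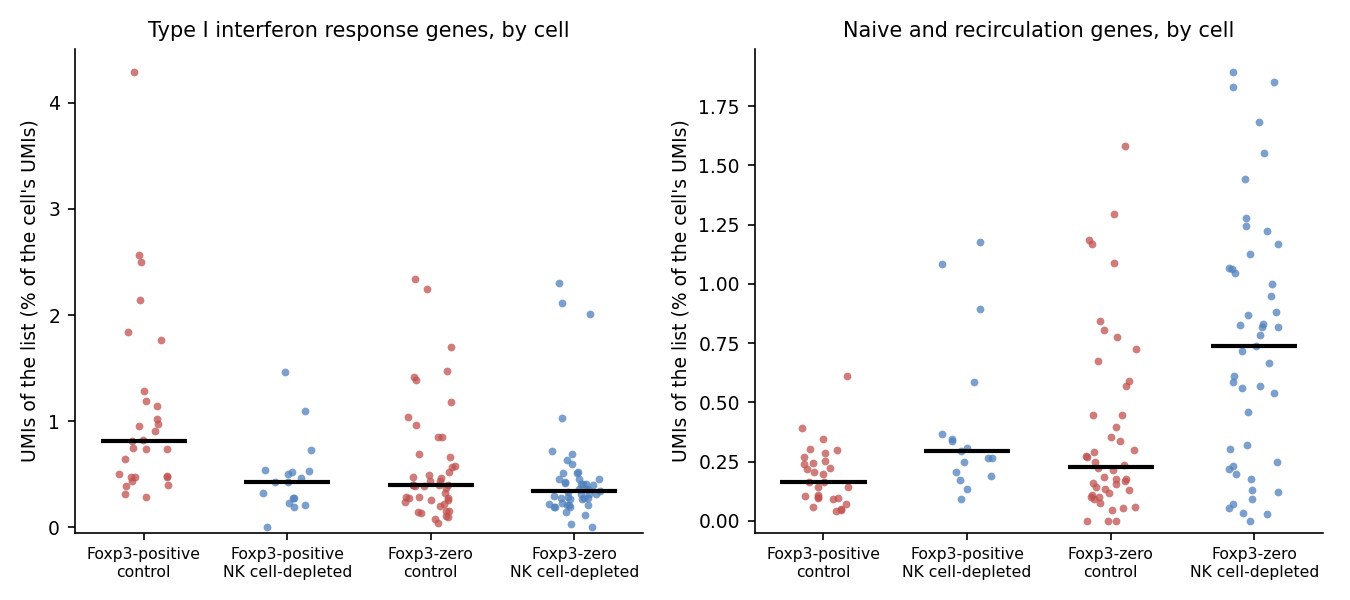
UMIs of the type I interferon list (left) and of the naive and recirculation list (right) as a percent of the UMIs of each cell. Each point is 1 cell, black lines are medians, and cells of a group share 1 library. The type I interferon median was 0.818% in control and 0.430% in NK cell-depleted Foxp3-positive cells, and the naive median was 0.228% and 0.739% in Foxp3-zero cells.

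Interferon genes were higher in the control library. The type I interferon list of 50 genes was 1.51-fold higher in control members (1.39 to 1.65), with 4 of its 28 genes of 20 UMIs or more over 2-fold higher, beside 4.59% of all genes, and none over 2-fold lower, beside 4.09%, and a median log2 ratio of 0.37. It was 1.77-fold higher in Foxp3-positive cells (1.55 to 2.02) and 1.27-fold higher in Foxp3-zero cells (1.13 to 1.42), and whether these values differ between the cell groups was not tested. The Foxp3-zero value was 1.10 (0.969 to 1.24) without members that held any of 12 markers of other cells and 1.71 (1.44 to 2.02) with the strict limits, and the Foxp3-positive value was 1.27 once 1 control cell beyond the upper limits of depth was added. The median log2 ratios were 0.87 over 11 genes and 0.03 over 14 genes, against -0.07 and -0.01 for all genes. As a share of UMIs, the list had a lowest, median and highest value of 0.290%, 0.818% and 4.29% in control Foxp3-positive cells and 0, 0.430% and 1.47% in NK cell-depleted ones, so the 2 sets of cells overlapped. The third quartile of the control cells, 1.19%, lay within the range of the NK cell-depleted cells. In Foxp3-zero cells the medians were 0.399% and 0.345%.

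Ifi27l2a and Ly6a led the list over all members, and both were higher in either cell group. Ifi27l2a, an interferon-induced gene of the ISG12 family, had 232 UMIs in 28 of 29 control and 86 UMIs in 12 of 17 NK cell-depleted Foxp3-positive cells, a ratio of 2.00 (1.56 to 2.59), and 136 and 74 UMIs in Foxp3-zero cells, a ratio of 2.10 (1.57 to 2.82). Ly6a (Sca-1) was 2.33-fold (1.25 to 4.60) and 2.38-fold (1.56 to 3.70) higher. In Foxp3-positive cells 4 of the 11 list genes with 20 UMIs or more were called over 2-fold higher, beside 6.63% of all 1448 genes. None was over 2-fold lower, beside 6.15%. The 4 were Ly6a and the 3 genes that follow, while Ifi27l2a fell just short of the call. In Foxp3-zero cells 2 of 14 were over 2-fold higher, beside 3.75% of all 2052 genes, and 1 was over 2-fold lower, beside 4.29%. The 3 genes that follow were not over 2-fold higher there. Rsad2, which encodes the antiviral protein viperin, had 29 UMIs in 7 of 29 control and 1 UMI in 1 of 17 NK cell-depleted Foxp3-positive cells (21.5, 3.57 to 878), with 55.2% of the former in 1 cell, and 6 and 14 UMIs in Foxp3-zero cells. Bst2 (tetherin) had 22 and 3 UMIs in Foxp3-positive cells (5.44, 1.63 to 28.4) and 9 and 12 in Foxp3-zero cells. Dtx3l, a ubiquitin ligase, had 20 and 7 UMIs, with an interval (0.861 to 5.93) that included 1.

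The IFN-gamma list of 40 genes showed the same order at a smaller size. It was 1.14-fold higher over all control members (1.08 to 1.21), 1.30-fold higher in Foxp3-positive cells (1.18 to 1.42) and 1.05-fold higher in Foxp3-zero cells (0.970 to 1.13), an interval that included 1. Once 1 control cell beyond the upper limits of depth was added, it stood at 0.969 over all members (0.914 to 1.03). In Foxp3-positive cells it then stood at 0.927, so its direction depended on the cells kept. In Foxp3-positive cells 6 of 17 genes were over 2-fold higher in control, beside 6.63% of all 1448 genes, and none over 2-fold lower, beside 6.15%. In Foxp3-zero cells 0 of 18 were, beside 3.75% of 2052 genes. Psme1, a subunit of the proteasome activator PA28, had 42 and 6 UMIs in Foxp3-positive cells (5.19, 2.20 to 14.9) and 38 and 45 in Foxp3-zero cells (0.964, 0.609 to 1.52). Psmb8, an immunoproteasome subunit, had 24 and 5 UMIs (3.56, 1.33 to 11.9), Tap1, the peptide transporter, 26 and 8 (2.41, 1.06 to 6.16), H2-T23, which encodes the nonclassical MHC molecule Qa-1, 39 and 14 (2.07, 1.10 to 4.12), and Igtp, an immunity-related GTPase, 17 and 4 (3.15, 1.03 to 12.9). The genes of the MHC class I light and heavy chain were closer in Foxp3-positive cells, with 294 and 205 UMIs of B2m (1.06, 0.887 to 1.28) and 275 and 207 of H2-K1 (0.985, 0.820 to 1.19).

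Several of these genes are also strong in macrophages. Psme1 was detected in 68.5% of control and 71.0% of NK cell-depleted monocytes and macrophages and Rsad2 in 25.5% and 30.1%. The part of these cells in the signal of the members was not tested. Macrophage and NK cell markers moved with the result through the 162 and 48 UMIs in control Foxp3-positive cells given above. Without the 4 members that held 20 or more UMIs of another cell type's markers, a choice made after seeing the data, the type I list was 1.96-fold and the IFN-gamma list 1.34-fold higher in Foxp3-positive cells. With 1 further control Foxp3-positive cell above the upper limit of 15000 UMIs or 4000 genes added, they stood at 1.27 and 0.927. In CD8 T cells the type I list was 2.43-fold higher in the control library (2.06 to 2.89) and the IFN-gamma list 1.16-fold higher (1.05 to 1.27).

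The interferon-stimulated response element, bound by complexes of STAT and IRF proteins, was searched as the letters GAAA, any 2 bases and GAAA again, on either strand, in the 250 bases before the start of the 10 interferon-list genes past 2-fold in Foxp3-positive cells. RefSeq promoters (GRCm38.p6) were at hand for 8 of the 10. The letters were found in 4 of 8, against 2.98% of all 32851 promoters. These 4 windows are shown 5′ to 3′ on the strand of the gene, with the last base next to the start and the matches in capitals. They lie at chr8:71537473-71537722 for Bst2 (minus strand), chr17:36032702-36032951 for H2-T23 (minus strand), chr12:26456453-26456702 for Rsad2 (minus strand) and chr11:58199306-58199555 for Igtp (plus strand).
Bst2: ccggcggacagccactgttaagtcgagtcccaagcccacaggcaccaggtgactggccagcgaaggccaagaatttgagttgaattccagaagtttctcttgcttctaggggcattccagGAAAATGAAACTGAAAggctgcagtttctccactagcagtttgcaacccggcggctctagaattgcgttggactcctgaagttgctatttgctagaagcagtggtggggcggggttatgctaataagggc
H2-T23: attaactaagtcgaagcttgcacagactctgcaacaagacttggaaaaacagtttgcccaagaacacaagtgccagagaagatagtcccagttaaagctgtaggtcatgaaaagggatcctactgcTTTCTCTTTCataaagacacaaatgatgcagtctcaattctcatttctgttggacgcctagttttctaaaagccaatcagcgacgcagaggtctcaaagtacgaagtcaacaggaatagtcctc
Rsad2: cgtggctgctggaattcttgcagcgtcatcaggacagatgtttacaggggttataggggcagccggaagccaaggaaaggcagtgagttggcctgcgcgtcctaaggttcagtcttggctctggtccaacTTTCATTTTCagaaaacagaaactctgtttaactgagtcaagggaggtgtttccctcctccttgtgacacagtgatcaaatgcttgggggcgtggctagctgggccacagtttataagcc
Igtp: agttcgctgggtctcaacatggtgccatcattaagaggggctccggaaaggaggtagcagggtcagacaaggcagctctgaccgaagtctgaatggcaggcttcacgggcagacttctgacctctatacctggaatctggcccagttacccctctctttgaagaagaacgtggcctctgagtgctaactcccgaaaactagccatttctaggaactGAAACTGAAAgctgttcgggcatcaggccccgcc
In Bst2 2 overlapping matches, the first beginning 130 and the second 124 bases before the start, gave 1 run of capitals. Matches began 124 bases before the start in H2-T23, 120 in Rsad2 and 34 in Igtp. The letters TTCNNNGAA, a core bound by STAT dimers, were found in 3 of the 8 windows, Bst2, Igtp and Psmb8, against 7.02% of all promoters. A match of letters is a description of the sequence and was not tested as a site. All 10 genes were taken from the interferon lists, so a share above that of all promoters could come from list membership alone. List genes not past 2-fold were not searched, so neither share bears on the difference between the libraries.

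**Figure D4:**
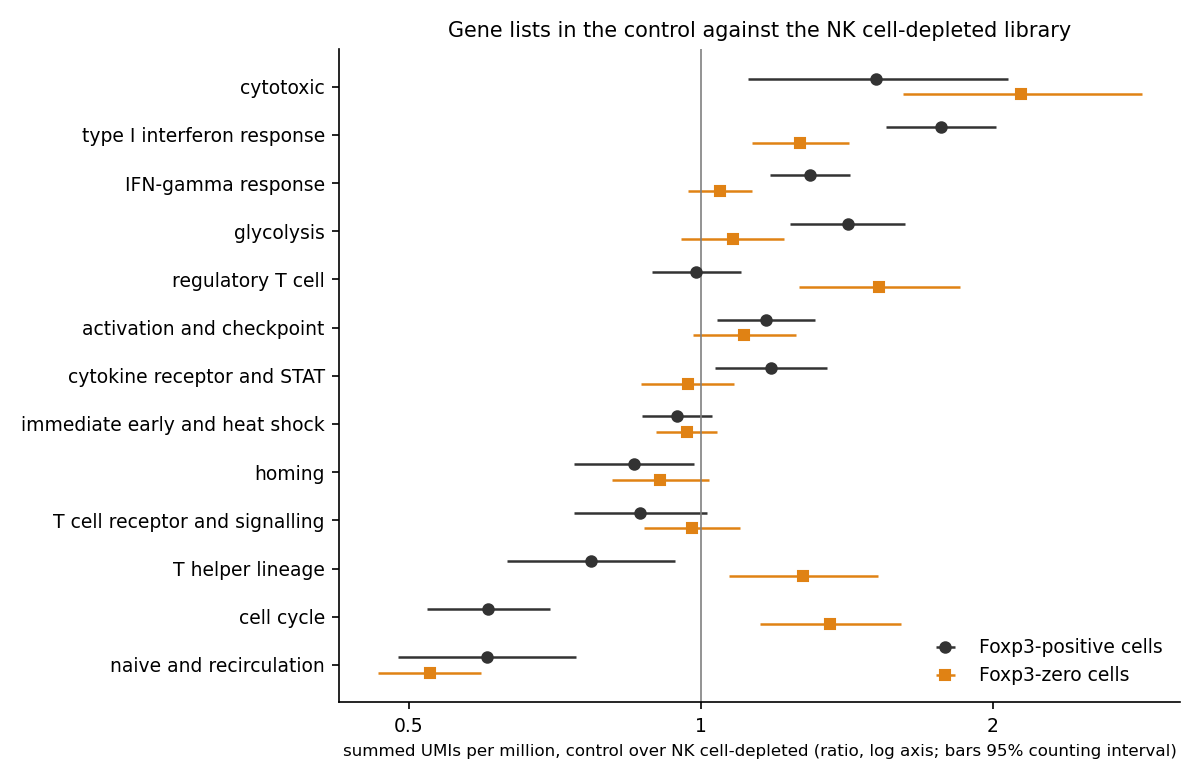
Ratio of a list's share of all UMIs in control over NK cell-depleted cells, on a log axis, for 13 gene lists in Foxp3-positive (circles) and Foxp3-zero cells (squares), with 95% counting intervals. The type I interferon list lay at 1.77 and 1.27, the naive list at 0.603 and 0.525, and the cell cycle list on opposite sides of 1.

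Among the remaining lists the cytotoxic list had the highest ratio over all members, 1.88 (1.53 to 2.31) from 281 and 144 UMIs. AW112010, an interferon-responsive transcript, gave 166 and 72 of these UMIs (2.22, 1.67 to 2.97) and was also found in 99.6% of control NK cells, whose part in it was not tested, while Gzmb had 22 and 27 UMIs and the 19 Gzma UMIs of control Foxp3-positive cells lay in 1 cell. The regulatory list was 1.28-fold higher (1.17 to 1.41). It stood at 0.9899 in Foxp3-positive cells (0.891 to 1.10), from 0.706 (0.636 to 0.784) without the upper limits to 1.15 (1.03 to 1.29) without members holding the 12 markers, so its direction there depended on the cells kept. It was 1.53-fold higher in control Foxp3-zero cells (1.26 to 1.85), where Ikzf2 had 46 UMIs in 7 cells against 13 UMIs in 4 cells and Ctla4 64 UMIs in 16 cells against 42 in 14. The glycolysis list was 1.25-fold (1.15 to 1.37) and the activation list 1.21-fold (1.11 to 1.32) higher in control members. Glycolysis stood at 1.02 (0.902 to 1.15) with the strict limits and 1.08 (0.984 to 1.19) without members holding the 12 markers, and activation at 1.02 (0.942 to 1.11) without the upper limits, intervals that included 1. The ratios were 1.06 (0.975 to 1.15) for cytokine receptors and STATs, 0.973 (0.922 to 1.03) for immediate early and heat shock genes, 0.918 (0.837 to 1.01) for T cell receptor and signalling genes, 1.04 (0.914 to 1.19) for T helper genes and 0.888 (0.812 to 0.970) for homing genes.

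Lineage factors of T helper cells differed in the size of their ratios, and Maf also in direction between the cell groups. Gata3, the factor of Th2 and tissue regulatory cells, had 69 UMIs in 23 of 46 control and 27 UMIs in 12 of 47 NK cell-depleted Foxp3-zero cells (2.92, 1.84 to 4.73), and 56 and 34 UMIs in Foxp3-positive cells (1.22, 0.784 to 1.93). Maf was 1.73-fold higher in control Foxp3-zero cells (1.13 to 2.66) and stood at 0.616 in Foxp3-positive cells (0.421 to 0.898), and it was detected in 70.2% and 68.8% of monocytes and macrophages. Among homing receptors Ccr2 had 94 and 35 UMIs in Foxp3-positive cells and 46 and 44 in Foxp3-zero cells. It is abundant in monocytes and macrophages, where it was detected in 87.8% and 91.5% of cells, and the part of these cells in the signal was not tested.

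Of the prostaglandin list of 12 genes, the PGE2 receptor gene Ptger4 gave 27 and 20 of the 45 and 41 UMIs in control and NK cell-depleted members. It had 7 and 7 UMIs in Foxp3-positive cells and 20 and 13 in Foxp3-zero cells, with a ratio of 1.30 (0.702 to 2.44) between the libraries, so a difference was not detectable at this depth. The list as a whole stood at 1.06 (0.676 to 1.65).

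Beside Ifi27l2a, AW112010 and Ly6a, the 10 genes most clearly higher in control members were Fth1 and Ftl1, the ferritin chains, Ctss, a lysosomal protease, Malat1, a nuclear RNA, Tmsb10, Glrx and S100a13. Malat1 had 2691 and 894 UMIs in Foxp3-positive and 3223 and 2658 in Foxp3-zero cells (2.23, 2.07 to 2.41, and 1.38, 1.31 to 1.46). Tmsb10, which encodes the actin-binding protein thymosin beta 10, had 372 and 209 UMIs in Foxp3-zero cells (2.03, 1.71 to 2.42). In control Foxp3-positive cells 47.0% of the Fth1 and 60.6% of the Ftl1 UMIs lay in 1 cell each, and without the 4 members rich in markers of other cells Ftl1 stood at 0.936. Ctss was detected in 98.2% and 98.0% of monocytes and macrophages and in 12 of 29 and 4 of 17 Foxp3-positive cells.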

How the data were processed

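Live CD45+ cells of pooled tumors were profiled by single-cell RNA-seq (10x Chromium, 3′ chemistry v3), with 1 library per group. The deposited values were UMI counts per gene and cell, made by the authors with Cell Ranger (3.0.2 in the file header, while the study's methods name another release) on build mm10 per the labels. No normalization had been applied to the counts, and no cell annotation was used.

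Of 11651 cells called, 9798 were kept, and the gene rule was applied to these. Kept cells had no fewer than 500 and no more than 15000 UMIs, between 200 and 4000 detected genes, and mitochondrial transcripts of 10% or less. The members and the gene lists were chosen with earlier results of these data known, so no count over a list is independent support. Counts were summed over the cells of a library and cell group and divided by all UMIs of that group. Ratios carry exact conditional binomial intervals, sums exact Poisson intervals and shares of cells exact Clopper-Pearson intervals, all at 95%. Counts over a list used genes with at least 20 UMIs over both groups compared, and called means past 2-fold. A gene at 0 was set against a floor of 3 UMIs per group, a set value and not the bound of an interval. No p-value was computed, as cells of 1 library are not replicates.

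Genes named outside the lists were, first, the 10 highest and 10 lowest in control against NK cell-depleted members with at least 50 UMIs, ranked by the bound of the interval nearest to 1. Second were the 15 highest and 15 lowest in Foxp3-positive against Foxp3-zero cells with at least 20 UMIs in each library and the same direction in both. Mitochondrial, ribosomal, Gm and Rik genes and genes of the rule were left out of both. Some genes that these rules would name are not reported here. No doublet caller was run, and members with markers of other cell types were left out as alternatives. The ratio and interval code was tested on simulated data. Python 3.11.15, numpy 2.4.6, scipy 1.17.1, pandas 2.3.3 and matplotlib 3.10.9 were used. The alternatives were other cell filters, 3 or 1 required receptor genes, thinning to 1000 UMIs, scaling by the median ratio of all genes, per-cell means, other count limits and leaving out single cells.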

Additional observations from a re-analysis of the deposited data

Results flagged for a closer look

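In both lists below the ratio of control over NK cell-depleted cells lay below 1 in Foxp3-positive cells and above 1 in Foxp3-zero cells, with counting intervals that did not include 1, and the difference between the cell groups was not tested. The T helper lineage list stood at 0.771 (0.632 to 0.942) in Foxp3-positive and 1.28 (1.07 to 1.52) in Foxp3-zero cells. Its genes with at least 20 UMIs had median log2 ratios of -0.61 (4 genes) and -0.17 (7 genes). The Foxp3-zero median thus lay on the other side from the summed ratio. Rora, with 47 and 68 UMIs and then 50 and 65, was lower in control in both cell groups. The cell cycle list stood at 0.604 (0.522 to 0.699) in Foxp3-positive and 1.36 (1.15 to 1.61) in Foxp3-zero cells. The Foxp3-positive value was 0.383 (0.306 to 0.477) without the cell with most UMIs of the list in each library, and the same without the deepest cells, and 0.440 without the upper limits. A single cell held 208 of the 339 control and 188 of the 416 NK cell-depleted UMIs of the list in Foxp3-positive cells. In Foxp3-zero cells a single cell held 99 of 311 control and 95 of 261 NK cell-depleted UMIs. As a share of a cell's UMIs, the list had medians of 0.116% in control and 0.193% in NK cell-depleted Foxp3-positive cells. In Foxp3-zero cells the medians were 0.129% and 0.152%, so there the median cell was lower in control although the summed ratio lay above 1. Hmgb2 had 191 UMIs in 14 of 17 NK cell-depleted Foxp3-positive cells, 40.3% of them in 1 cell. Mki67, a marker of dividing cells, was detected in 3 control and 4 NK cell-depleted Foxp3-positive cells and in 3 and 3 Foxp3-zero cells, and 92.6% of the 27 Top2a UMIs of control Foxp3-positive cells lay in 1 cell. With the stricter limits on UMIs and mitochondrial UMIs both Foxp3-zero values fell on the other side of 1, as given below.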

How the results depend on the processing

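No paired analysis was possible because each group had 1 library, and for the same reason no replicate could be left out. Over every alternative run, the ratios between libraries of the shares of members and of Foxp3-positive cells stayed inside their main counting intervals, the type I interferon list stayed above 1 in Foxp3-positive cells (1.27 to 2.38) and the naive list below 1 in Foxp3-zero cells (0.492 to 0.832), although the interval of 0.832, with the strict limits, included 1. The causes of the shifts were not tested. Main values not given in the report are, for Foxp3-positive over Foxp3-zero cells, 1.14 for the IFN-gamma list in control and 1.34 and 3.02 for the cell cycle list in control and NK cell-depleted cells, and those below on the other side of 1 are reversals. Comparisons between libraries are control over NK cell-depleted, and the others are Foxp3-positive over Foxp3-zero cells.

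Without the upper limits, which adds 1 control Foxp3-positive cell, the type I list over all members stood at 1.29 and the IFN-gamma list at 0.969, or 0.927 in Foxp3-positive cells. Against Foxp3-zero cells of the control library the regulatory list then stood at 2.80, naive 0.397, activation 1.27, IFN-gamma 0.819 and cell cycle 0.978. With at least 1000 UMIs and at most 5% mitochondrial UMIs, which left 16 and 5 Foxp3-positive cells, the type I list stood at 1.84 over all members. In Foxp3-zero cells T helper stood at 0.650, cell cycle 0.413, Ccr7 1.35 and Tcf7 1.30 between the libraries. Against Foxp3-zero cells the regulatory list stood at 3.13 in control and 4.62 in NK cell-depleted cells, naive at 0.666 and 1.15, cell cycle at 0.839 and 0.507, and Ifi27l2a at 0.893 in control cells.

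With every cell thinned to 1000 UMIs the type I and IFN-gamma lists over all members stood at 1.69 and 1.22, the regulatory list at 5.51 and 8.35 and the activation list at 2.06 in control. As means of per-cell shares these were 1.70 and 1.24, 5.21 and 7.67, and 2.03 and 2.12, with naive at 0.552 in NK cell-depleted cells. Without members that held any of 12 markers of other cells, Ftl1 stood at 0.965 over all members and the regulatory list at 5.06 in control. Without the 4 members rich in such markers they stood at 0.936 and 5.09. Without the cell with most UMIs of each list or gene, Il1b stood at 1.31 over all members, cell cycle at 0.832 in control, and the regulatory and activation lists at 7.76 and 1.94 in NK cell-depleted cells. Without the deepest cells, an alternative chosen after seeing the data like that of the 4 members, cell cycle stood at 0.580 in control.

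Genes past 2-fold between the libraries made up 8.69% of those tested, and 15.3% with a limit of 10 UMIs. Of the other lists, 2 were past 2-fold in a comparison. This count was 1 with 1 required receptor gene, 4 without members with any of the 12 markers, 6 without the upper limits, with thinning or without top cells, and 7 with the strict limits or per-cell means. At 595 to 13914 UMIs a cell and 17 to 47 cells a group, genes with few UMIs cannot be told apart between the libraries, and spread between animals was not measured.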

Other observations

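CD8 T cells of the same libraries, 38 control and 23 NK cell-depleted, gave further values beside those of CD4 cells. Their activation and checkpoint list was 1.97-fold (1.59 to 2.45) and their cell cycle list 2.95-fold (2.38 to 3.70) higher in the control library. In CD4 and regulatory T cells these lists stood at 1.21 (1.11 to 1.32) and 0.924 (0.828 to 1.03). The difference between the cell types was not tested, and the deepest control CD8 T cell gave 13.6% of the UMIs of its group.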
